A study of Mus musculus with 2 samples.

Results

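Antiviral effector and PARP genes are a group of 10 genes that interferon induces in mouse cells: Rsad2, Oasl2, Rtp4, Isg15, Usp18, Parp9, Parp10, Parp12, Parp14 and Dtx3l. All rows that the deposited table gives to these symbols were taken, which gave 9 of 20615 regions, for 8 of the 10 genes and of 12553 genes in all. Parp9 and Isg15 have no row of their own and are unmeasured under their names. The 10 genes were proposed with results of this same comparison known, so the values that follow describe them and test nothing.

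Leukemic spleen cells of mice were profiled by ChIP-seq for H3K9ac, the acetyl mark on lysine 9 of histone H3 that marks active promoters. All mice carried NUP98/HOXD13, a fusion gene that drives myelodysplasia and leukemia, and a human cDNA of GFI1, a transcriptional repressor of blood cells. The strains are labelled Gfi1 36S/S-Nup98/HoxD13, with serine at residue 36, and Gfi1 36N/N-Nup98/HoxD13, with asparagine there, and are called 36S and 36N below. With 1 library for each genotype there was no replicate and no test between genotypes. The sources used here do not give the age of the mice, the number of spleens behind a library or the promoter that drives the fusion. The question put to the libraries is which regions carry more or less H3K9ac with either GFI1 form.

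Type I interferon binds its receptor, whose kinases activate a transcription factor complex. The complex binds a GAAA-rich promoter element, the interferon-stimulated response element, and switches on genes that block viral replication. Several PARP genes belong to this set; their products mostly attach single ADP-ribose units to proteins, and DTX3L is the ubiquitin ligase that works as a partner of PARP9.

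Promoter sequences show where that element lies in these genes. RefSeq promoter windows (GRCm38.p6, 250 bases before to 50 after the gene start) were given for 5 of the 10 members. The core, GAAA followed by any 2 bases and a second GAAA, was searched on both strands and was present in 2 of the 5, against 3.44% of all 32851 windows. Rsad2 and Isg15, which hold it, and Dtx3l and Parp12, which do not, are shown 5′ to 3′ on the strand of the gene, with the matched bases in capitals.
Rsad2: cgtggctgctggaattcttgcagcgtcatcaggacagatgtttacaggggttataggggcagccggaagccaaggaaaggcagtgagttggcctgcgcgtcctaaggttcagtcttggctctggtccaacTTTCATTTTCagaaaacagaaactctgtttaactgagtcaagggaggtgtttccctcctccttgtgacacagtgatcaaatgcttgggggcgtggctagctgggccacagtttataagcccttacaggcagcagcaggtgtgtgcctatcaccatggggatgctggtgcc
Isg15: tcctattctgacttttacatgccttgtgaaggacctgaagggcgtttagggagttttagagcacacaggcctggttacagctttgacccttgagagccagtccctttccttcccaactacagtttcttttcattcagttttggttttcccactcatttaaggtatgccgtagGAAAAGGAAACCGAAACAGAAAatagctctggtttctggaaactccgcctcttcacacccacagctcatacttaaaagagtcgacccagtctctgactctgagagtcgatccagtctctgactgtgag
Dtx3l: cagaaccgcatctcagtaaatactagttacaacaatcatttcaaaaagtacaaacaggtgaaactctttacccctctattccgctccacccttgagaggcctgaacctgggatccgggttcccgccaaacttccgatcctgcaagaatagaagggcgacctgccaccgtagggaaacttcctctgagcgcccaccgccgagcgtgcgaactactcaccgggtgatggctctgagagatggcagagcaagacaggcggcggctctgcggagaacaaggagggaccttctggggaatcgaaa
Parp12: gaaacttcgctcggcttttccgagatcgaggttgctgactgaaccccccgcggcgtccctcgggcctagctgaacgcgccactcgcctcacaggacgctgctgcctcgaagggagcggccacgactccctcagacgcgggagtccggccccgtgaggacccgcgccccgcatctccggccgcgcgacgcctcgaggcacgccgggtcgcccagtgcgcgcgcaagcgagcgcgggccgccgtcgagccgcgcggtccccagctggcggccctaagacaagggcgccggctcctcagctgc
The Rsad2 window (chr12:26456403-26456702, minus strand) has 1 match, read on the opposite strand, from 120 to 111 bases before the start. In the Isg15 window (chr4:156200769-156201068, minus strand) 3 matches overlap each other in 1 run, from 78 to 57 bases before the start. The Dtx3l window (chr16:35938978-35939277, minus strand) and the Parp12 window (chr6:39118300-39118599, minus strand) have none, and neither has the Oasl2 window. The gamma-activated core TTCNNNGAA, searched in the same way, was in 0 of the 5 windows and in 8.30% of all. The windows differ in base composition. Parp12 has 46 CpG dinucleotides, Dtx3l 17, Rsad2 and Isg15 6 each and Oasl2 3, against a median of 7 over all windows. All bases of the Rsad2, Oasl2, Parp12 and Dtx3l windows lie inside a measured region, and those of the Isg15 window lie in none. A match is a string of letters in this window and not a measured binding site.

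All 9 member regions had a lower value in 36N than in 36S. At the weak second region of Parp14 the 95% counting interval, −1.29 to 0.32, included 0. A region was called lower or higher by size alone, at 1 log2 unit (2-fold); 6 of the 9 were lower, against 14.1% of all regions, and none was higher, against 7.49% of all regions. Counted by gene, with the strongest region of each, 6 of 8 were lower by that much, against 12.6% of all genes, and none was higher, against 7.37%. The median difference, 36N minus 36S as deposited, was −1.23 log2 units over the member regions and −0.40 over all regions. Summed over all regions, the deposited 36N values were 0.67 of the 36S values, and the sources used here do not say whether they are scaled to depth. The counts were therefore repeated on level-adjusted differences, from which the general trend with signal strength (lowess) had been removed. Then 4 of the 9 regions were lower by 1 log2 unit or more, against 8.3% of all regions, none was higher, against 8.12%, and all 9 lay below the trend. The count was also 4 lower and none higher with values centred on the median region, where 5.11% of all regions were lower and 14.4% higher, and after quantile normalization, where the shares were 8.42% and 8.13%. The intervals given here and below are exact 95% intervals of the 2 read numbers. They cover counting error in these libraries only, not the spread between animals. In bulk chromatin, fewer cells that carry the mark and less of it per cell cannot be told apart.

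**Figure D1:**
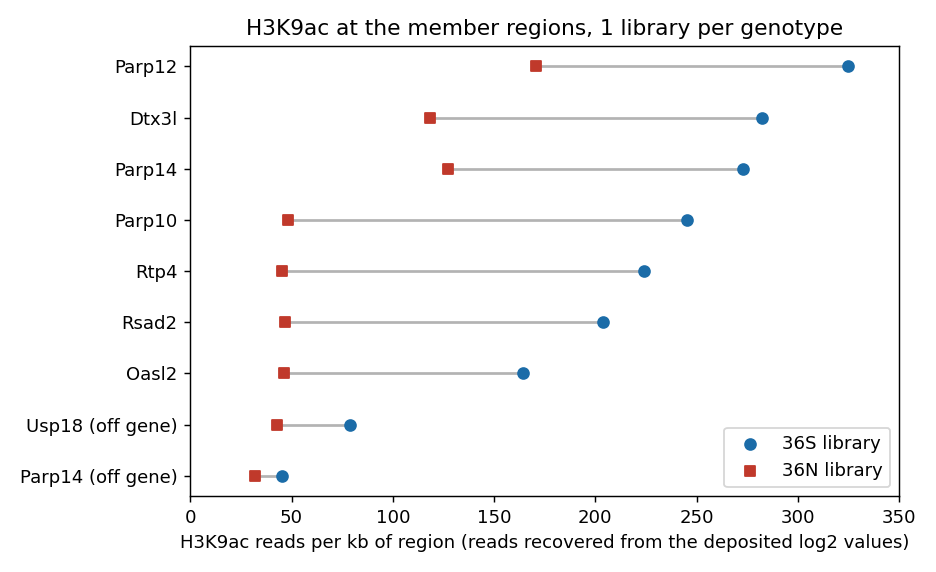
H3K9ac level (x axis, reads per kb of region) at the 9 member regions in the 36S library (circles) and the 36N library (squares), 1 library each, with lines joining the same region. Parp10, Rtp4, Rsad2 and Oasl2 lie between 164 and 245 reads per kb in the 36S library and between 45.1 and 48.3 in the 36N library.

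The 7 regions that overlap their own gene were broad and strong in the 36S library. They were 2100 to 4050 bp long, against a median of 1350 bp over all regions, and held 550 to 1106 reads in 36S and 126 to 515 in 36N. In reads per kb their levels spanned 1.98-fold in the 36S library and 3.78-fold in the 36N library. Parp10, Rtp4, Rsad2 and Oasl2 lay under the median of all regions in the 36N library, which was 63.3 reads per kb, whereas Parp12, Parp14 and Dtx3l lay between 118 and 170 reads per kb.

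Rsad2 encodes viperin, a radical SAM enzyme that makes a chain-terminating nucleotide against viral polymerases. Its region (chr12:26454301-26457000, ENSMUSG00000020641) spans the gene start and held 550 reads in 36S and 126 in 36N. Per length this is 204 reads per kb against 46.7, a level above 82.4% of all regions in one library and above 28.3% in the other. The difference was −2.10 log2 units (interval −2.39 to −1.82), so the 36S value was 4.29-fold higher. The level-adjusted difference was −1.51.

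Oasl2, a member of the oligoadenylate synthetase family that senses or responds to double-stranded RNA, had 591 reads in 36S and 166 in 36N (chr5:114896251-114899850). The region covers the annotated start of the gene. Its level per length was 164 against 46.1 reads per kb. The difference was −1.81 log2 units (−2.06 to −1.55), and −1.16 after adjustment for level.

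Rtp4 encodes an interferon-inducible chaperone that helps G protein-coupled receptors reach the cell surface. Its region (chr16:23609101-23612250) had 705 reads in 36S and 142 in 36N. This is 224 reads per kb against 45.1. The difference was −2.29 log2 units (−2.56 to −2.02). The level-adjusted difference, −1.64, was the lowest among the member regions, and 2.31% of all regions were lower.

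The ubiquitin-like protein ISG15 and USP18, the protease that removes it and that also restrains the interferon receptor, are the part of the group that the table covers least. No region overlaps Isg15. The nearest, given to AW011738, begins 1233 bp past the upstream end of Isg15 (chr4:156202051-156205650) and had 660 and 388 reads, a difference of −0.74 (−0.92 to −0.56) and of −0.01 after adjustment for level; it was chosen after its values were seen. The region given to Usp18 (chr6:121272001-121273050) lies 1085 bp beyond the end of that gene with the higher coordinate and overlaps the predicted gene Gm44148 in RefSeq. It had 83 reads in 36S and 45 in 36N, with a difference of −0.86 (−1.41 to −0.32). Neither value describes the promoter of the member it stands next to.

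The PARP genes and Dtx3l varied among themselves, from −2.32 log2 units at Parp10 to −0.90 at Parp12 in the regions that overlap their genes. Parp10, a mono-ADP-ribosyltransferase gene on chromosome 15, had 919 reads in 36S and 181 in 36N (chr15:76240501-76244250). Its level was 245 against 48.3 reads per kb. The difference of −2.32 log2 units (−2.56 to −2.09) was the lowest of the 9, a 4.98-fold higher value in 36S, and 117 of the 20615 regions were lower still. Level-adjusted it was −1.61.

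Parp14 encodes a large macrodomain-bearing ADP-ribosyltransferase that modulates interferon and interleukin-4 responses. It has a region over its annotated end with the higher coordinate (chr16:35868901-35872950) with 1106 reads in 36S and 515 in 36N. The difference was −1.08 log2 units (−1.23 to −0.92), and −0.33 after adjustment for level. A second, weak region given to Parp14 lies 16407 bp away between genes (chr16:35887951-35888700). It had 34 and 24 reads, and its interval of −1.29 to 0.32 included 0, so a difference was not detectable at this depth.

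Dtx3l and Parp9 share a region. The RefSeq genes overlap by 558 bp, and the region given to Dtx3l (chr16:35936701-35940450) covers 2327 bp of Dtx3l and 1981 bp of Parp9. It had 1058 reads in 36S and 443 in 36N, that is 282 against 118 reads per kb. The difference was −1.23 log2 units (−1.39 to −1.07), and −0.49 after adjustment for level. It is the only region that overlaps Parp9, and reads in it cannot be assigned to one gene of the pair.

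Parp12, a zinc finger PARP that restricts several RNA viruses, had the highest level per length in both libraries, with 325 reads per kb in 36S and 170 in 36N. Its region (chr6:39117001-39119100), which also overlaps 4930599N23Rik in RefSeq, held 682 and 358 reads. The difference of −0.90 log2 units (−1.09 to −0.72) did not reach the size rule. At −0.18 after adjustment for level it was the member nearest to the trend.

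**Figure D2:**
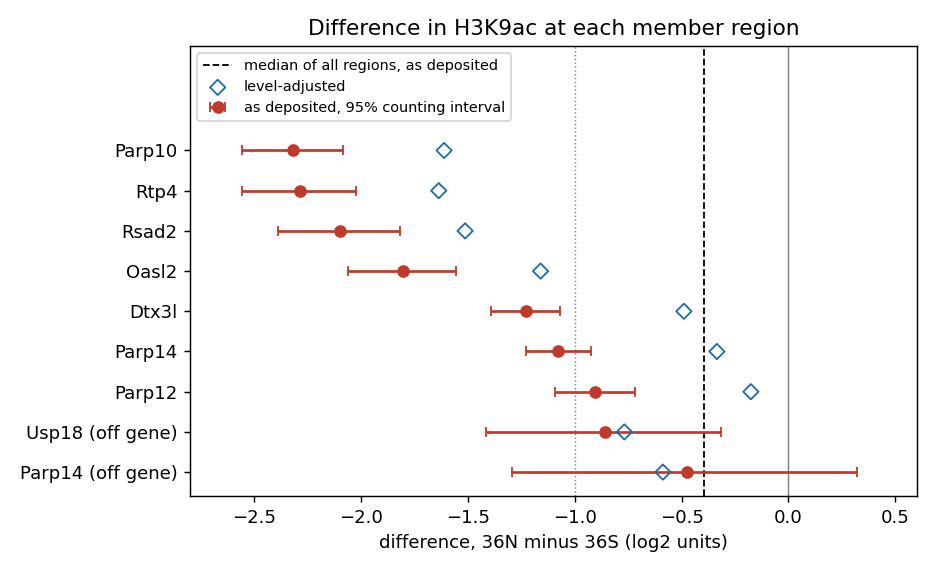
Difference in H3K9ac (x axis, 36N minus 36S in log2 units) at each member region as deposited, with its 95% counting interval (filled points and bars), and level-adjusted (open diamonds); the dashed line is the median of all regions and the dotted line the size rule. The intervals of Parp10, Rtp4, Rsad2 and Oasl2 end below −1.55, and those of the other regions start at −1.41 or above.

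In order of the difference, neighbours overlapped in their counting intervals except at a single step. The interval of Oasl2 ended at −1.55 and that of Dtx3l, the next, began at −1.39. Parp10, Rtp4, Rsad2 and Oasl2 thus lay on one side, and Dtx3l, Parp14, Parp12 and Usp18 on the other. The step was found by sorting these same values, with intervals of counting error only, and the grouping was not tested. With the trend subtracted, the 4 regions past 1 log2 unit were the former 4, at −1.64 to −1.16. The remaining 5 regions then lay between −0.77 and −0.18.

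**Figure D3:**
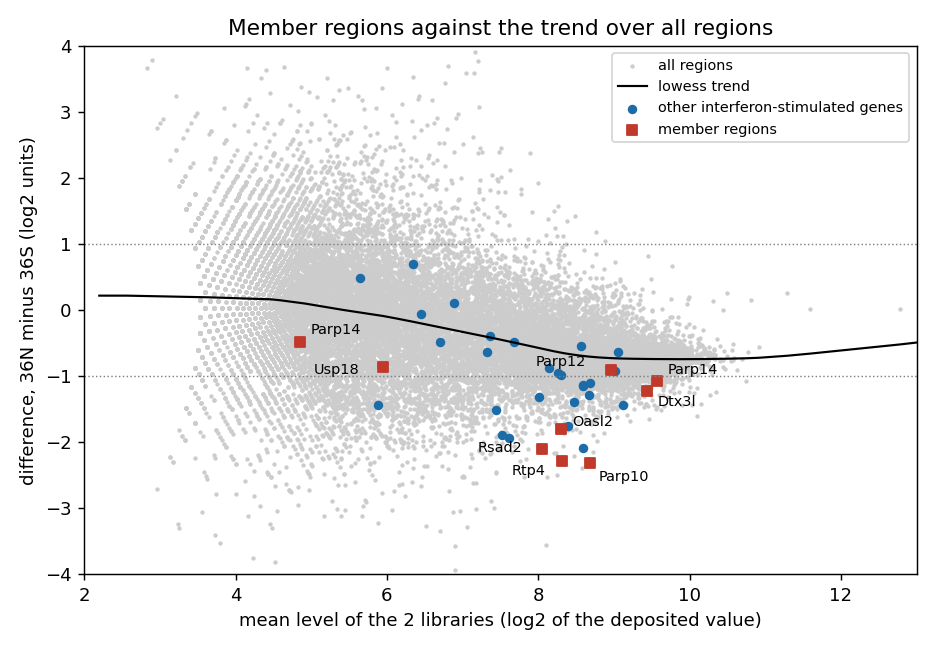
Difference (y axis, 36N minus 36S in log2 units) against the mean level of both libraries (x axis, log2) for all regions (grey), the lowess trend (line), the strongest region of each of the other interferon-stimulated genes (circles) and the 9 member regions (squares). All 9 squares lie under the line; 20 regions beyond 4 log2 units are outside the axes.

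Most strong regions had lower values in the 36N library. In the strongest 10% of regions the median difference was −0.75, and 97.7% of them lay below 0. Cebpa, a myeloid transcription factor gene with reads near those of Rsad2 in 36S, had 564 and 663 reads, a difference of 0.26; it was chosen after its values were seen. The regions held 4989632 reads in 36S and 3292869 in 36N. The trend at the level of the 7 gene-overlapping members ran from −0.74 at Parp14 to −0.59 at Rsad2.

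Parp10 is the only member with a region on chromosome 15, where differences were low as a whole. The median difference over its 802 regions was −0.86, and 43.5% of them were lower by 1 log2 unit or more. Within this chromosome 12 regions were lower than Parp10. The regions around Parp10 were also below the general median. Grina, 1351 bp away, had 1906 and 614 reads and a difference of −1.61 (−1.74 to −1.48). Of the 2 regions within 25 kb that the table gives to Plec, 1 was at −1.46 (−1.71 to −1.22). The other, at −0.90 (−1.13 to −0.66), also covers 456 bp of Parp10 in RefSeq, at the end with the lower coordinate. Spatc1 was at −0.53 (−0.85 to −0.21). The part of the chromosome in the Parp10 value was not tested; without chromosome 15, 5 of 8 member regions were lower by 1 log2 unit or more, against 13% of all regions off that chromosome.

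The other members lie on chromosomes 5, 6, 12 and 16, whose medians were between −0.46 and −0.27. Near Oasl2, the Gm13822 region was at −1.40 (−1.60 to −1.21) and that of 4930519G04Rik at −0.75 (−1.44 to −0.08). Between Parp14 and Dtx3l, the 2 regions given to Gm10237 were at −1.34 (−2.19 to −0.55) on 49 and 19 reads and at −0.97 (−1.37 to −0.59) on 170 and 85 reads. Rsad2, Rtp4, Parp12 and Usp18 had no further region within 25 kb. Over the 8 neighbouring regions that the table gives to other genes, the Plec region that reaches into Parp10 included, the median was −1.16. Of these, 4 were lower by 1 log2 unit or more, against 14.1% of all regions. The 8 include the regions around Parp10 on chromosome 15, where 43.5% of regions were lower by that much.

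**Figure D4:**
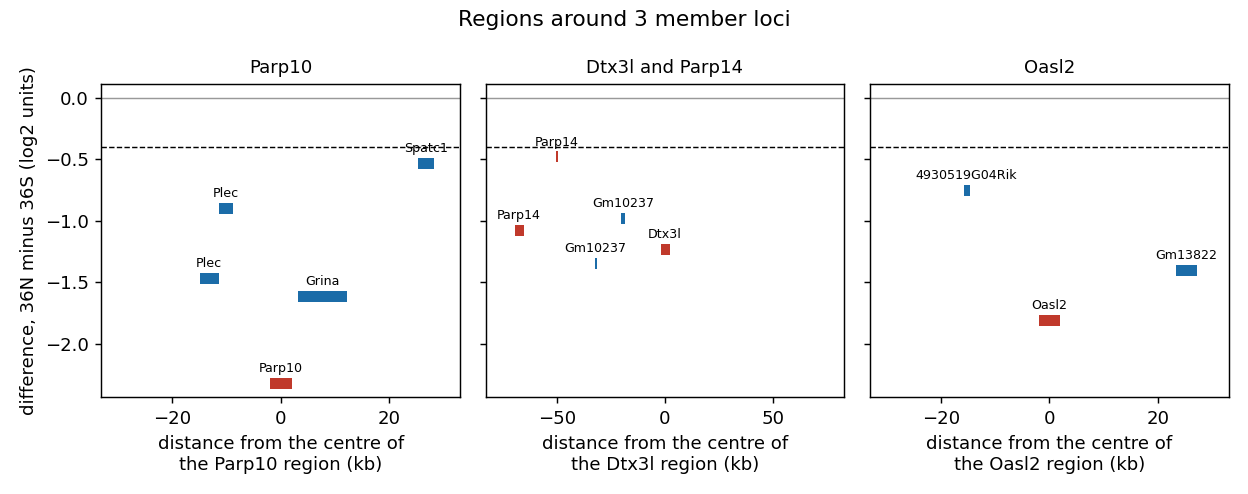
Difference (y axis, 36N minus 36S in log2 units) of each region around Parp10, around Dtx3l and Parp14, and around Oasl2, against distance from the centre of the named region (x axis, kb); bars are drawn at the regions' length, members in red and other genes in blue, and the dashed line is the median of all regions. Parp10 and Oasl2 lie below each of their neighbours, and the 2 Gm10237 regions lie on both sides of Dtx3l in value.

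Other genes that interferon induces were lower in the 36N library in many cases. Of 32 listed genes outside the members, 27 had a region, and 13 were lower by 1 log2 unit or more, against 12.6% of all genes, while none was higher by that much, against 7.37%. The median was −0.98, against −0.53 over all genes. Values below 0 were found at 24 of the 27, and at 9047 of all 12553 genes. Relative to the median region, 7 were lower (3.54% of all genes) and 1 was higher (12.9%). Of the level-adjusted differences 6 were lower (4.28%) and none higher (8.66%).

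The oligoadenylate synthetase genes on chromosome 5 were the lowest of these. Oas3 had 801 reads in 36S and 184 in 36N and lay at −2.10 (−2.33 to −1.86). Oas2, with 382 and 98 reads, was at −1.94 (−2.27 to −1.61). Oas1a, with 354 and 94 reads, was at −1.89 (−2.23 to −1.55); its close copies lie beside it, so how reads were shared among them is uncertain. Level-adjusted, the 3 lay between −1.46 and −1.40, within the range of the 4 lower members.

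Lgals3bp, a secreted glycoprotein, was at −1.76 (−2.01 to −1.52) and Trim30a, a TRIM protein that dampens inflammatory signalling, at −1.51 (−1.85 to −1.18). Bst2, tetherin, which holds budding virions at the membrane, was at −1.44 (−1.63 to −1.26). Dhx58, an RNA sensor of the RIG-I family, was at −1.39 (−1.63 to −1.17), in a region that also overlaps Kat2a. The apoptosis factor gene Xaf1 was at −1.32 (−1.59 to −1.05) and Adar, the RNA-editing deaminase, at −1.28 (−1.50 to −1.07). Weaker regions that overlap Adar and Trim30a were at 0.25 (−0.08 to 0.58) and −0.32 (−0.76 to 0.13), with intervals that included 0. Herc6, the mouse ligase for ISG15, was at −1.15 (−1.37 to −0.94). Eif2ak2, the kinase PKR, was at −1.13 (−1.35 to −0.92), in a region that also overlaps Gm26637. Irf7, the interferon regulatory factor that amplifies interferon production, was at −1.11 (−1.32 to −0.90). Cmpk2, a nucleotide kinase gene next to Rsad2, was at −1.44 (−2.05 to −0.87) on 97 and 35 reads, through a region 5816 bp from the gene that overlaps the predicted Gm46344.

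Values above 0 were found at 3 of the 27, chosen for mention after they were seen. Mx1, a dynamin-like antiviral GTPase gene, had 64 and 102 reads (0.70, 0.23 to 1.17). The intervals of Ifit3 (−0.11 to 1.10) and of Ifitm3 (−0.28 to 0.48), the latter through a region 9736 bp from the gene, included 0. A weaker region given to Ifitm3, 4336 bp from the gene, had 47 and 71 reads and lay at 0.62 (0.07 to 1.19).

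The genes of the interferon receptor and its signalling were measured in part. Of the 6 reported here, 3 had a region, with a median of −0.90, against −0.53 over all genes. None of the 3 reached the size rule, by which 12.6% of all genes were lower and 7.37% higher. A count over 3 genes is too small to set against these shares. The receptor chain genes Ifnar2, in a region that also overlaps Gm36587, and Ifnar1 were at −0.996 (−1.14 to −0.85) and −0.90 (−1.12 to −0.69). The kinase gene Jak1 was at −0.45 (−0.60 to −0.30). After adjustment for level these 3 lay between −0.25 and 0.29. Of the ISG15 conjugation genes, 2 of 4 were measured: Herc6, given above, and Ube2l6, the conjugating enzyme, at −0.98 (−1.22 to −0.74).

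PARP and ADP-ribose genes outside the members lay nearer to the trend. Of 16, 11 had a region, with a median of −0.53, equal at this rounding to that of all genes, and a level-adjusted median of 0.15. Parp11, a nuclear-envelope PARP, was at −1.19 (−1.47 to −0.92). Parp4, the vault PARP, was at −0.99 (−1.27 to −0.73), in a region that also overlaps Cenpj. The tankyrase genes Tnks and Tnks2 were at −0.83 (−0.996 to −0.67) and −0.58 (−0.72 to −0.44). Adprhl2, an ADP-ribose hydrolase gene, was at −0.69 (−0.91 to −0.48), in a region that also overlaps Tekt2. Macrod1, a macrodomain hydrolase gene, was at −0.53 (−0.82 to −0.24). Parp6, in a region that also overlaps Gm51709, was at −0.46 (−0.70 to −0.21). Weaker regions of Macrod1 ran from −0.98 (−1.40 to −0.58) to 0.54 (0.005 to 1.08). Those given to Parp11 were at −0.70 (−1.08 to −0.33) and 0.51 (−0.006 to 1.04). Intervals included 0 at the DNA damage sensor Parp1 (−0.40 to 0.13), whose region also overlaps Gm31986, at Parp3 (−0.30 to 0.27) and at Parp8 (−0.23 to 0.11). Macrod2 had 10 and 27 reads and was higher at 1.46 (0.37 to 2.67). Among the strongest regions of these genes, Macrod2 alone passed the size rule relative to the median region or after adjustment for level. At a smaller size of about 1.5-fold, 4 of the 11 were lower, against 46% of all genes. Whether the members differ from these genes was not tested, since the members were chosen on this comparison.

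**Figure D5:**
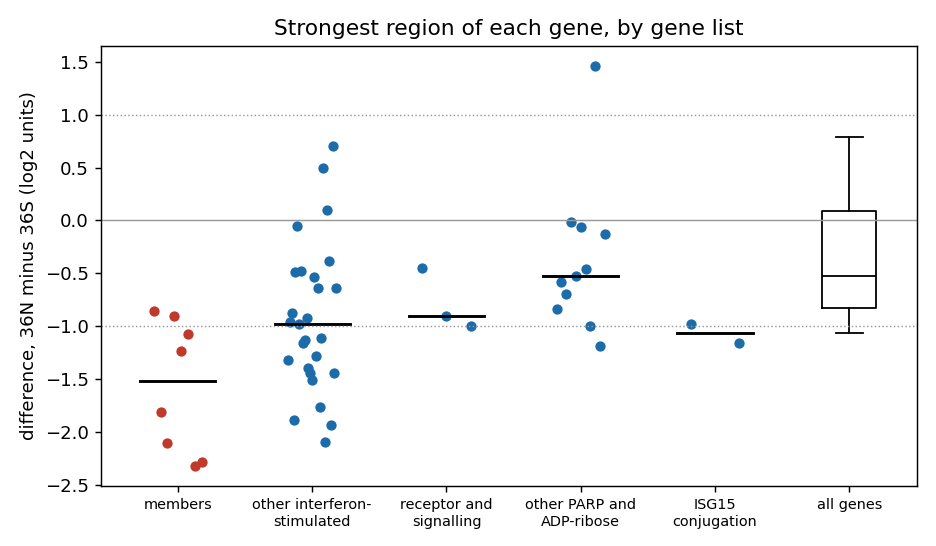
Difference of the strongest region of each gene (y axis, 36N minus 36S in log2 units) in the members and in 4 other lists, 1 point per gene with the median as a bar, beside a box of all genes (median, quartiles and whiskers at the 10th and 90th percentiles). The 8 members lie between −2.32 and −0.86, and the other PARP and ADP-ribose genes between −1.19 and 1.46.

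By Euclidean distance of the 2 log2 values, the genes nearest to Parp10 were Chid1 (0.13), Tmcc2 (0.17) and Oas3 (0.20). The likeness is over 2 libraries only.

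Marker genes of erythroid and T cells had lower values in 36N, as the members did. Among 5 of 9 erythroid genes with a region, reads in the strongest regions summed to 2811 in 36S and 702 in 36N, and all 5 were lower by 1 log2 unit or more. Of all genes, 12.6% were lower by that much and 7.37% higher, and reads over all regions summed to 4989632 and 3292869. For 4 of 5 T cell genes the sums were 1054 and 344, with 3 lower by that much. For 3 of 6 plasmacytoid dendritic cell genes, a cell type that makes much type I interferon, they were 1748 and 818, with 1 lower by that much. This was Bst2, which is also in the interferon-stimulated list, while Tcf4 was at −0.78 and Il3ra at −0.58, and Siglech, Irf8 and Ly6d had no region. Myeloid and leukemic genes (7 of 9) had 1522 and 1774 reads, with none past the size rule as deposited. Neither Spi1 nor Mpo had a region. The median level-adjusted difference was 0.90 for the myeloid and leukemic genes and −1.75 for the erythroid genes. It was −1.11 for the T cell genes and −0.32 for the plasmacytoid dendritic cell genes. B cell genes were covered by Cd79b alone, with 91 and 83 reads, and 2 of 3 NK cell genes had 260 and 373, through regions 44124 bp from Ncr1 and 8736 bp from Klrb1c. The part of these cell types in the values of the members was not tested.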

How the data were processed

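H3K9ac libraries of leukemic spleen cells, 1 per genotype, were compared. Per the labels' protocols, erythrocytes were lysed before fixation (formaldehyde, 0.4%) and 20 min of sonication. CASAVA 1.8.2, STAR 2.5.0c, SAMtools and build mm10 appear in the submitters' processing notes, with no role stated. STAR aligns spliced RNA reads by design; its settings for DNA, and the steps from alignments to annotated regions, are not stated in the sources used here. No input control was used here.

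The deposited table holds 1 log2 value per library and region. Raised to the power of 2, the 36S values were whole reads (within 0.01), apart from 13 regions at a floor of 0.9, taken as 0 reads. The 36N values were whole multiples of 1.02, a scale factor that no source used here explains. Reads per kb were computed from these reads, without the constant; differences are of the deposited log2 values, with no pseudocount, and intervals are exact conditional (Clopper-Pearson). At the median of 95 (36S) and 83 (36N) reads per region, single regions are imprecise. The lowess trend used a fraction of 0.3 and autosomes. For each gene the region of highest mean level was used; 10 symbols turned into dates were left out. Distance is the deposited table's distance in bp from a region to its gene.

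Members, lists and tests were chosen with earlier results of these data known. The genes named are all members, other genes within 25 kb of their regions and listed pathway genes past 1 log2 unit. Also named are all measured receptor, signalling and PARP list genes, the 3 genes nearest to the lowest member, and genes of the marker lists. Mx1, Ifit3, Ifitm3, Ube2l6, AW011738 and, from the marker lists, Cebpa were added after their values were seen. One gene of the signalling list is not reported here. Promoters and gene positions come from RefSeq (GRCm38.p6), where all 10 member symbols matched a gene. The procedure was tested on simulated data. Alternatives were other scalings, sizes, level filters, region assignments and leaving out chromosome 15. Python 3.11.15, numpy 2.4.6, pandas 2.3.3, scipy 1.17.1 and statsmodels 0.14.6 were used.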

Additional observations from a re-analysis of the deposited data

How the results depend on the processing

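The 9 member regions had negative differences as deposited, centred on the median region, level-adjusted and quantile normalized. Regions lower by 1 log2 unit or more numbered 6 as deposited and 4 under each of these 3 scalings. The median over member regions was −1.23 as deposited, −0.83 centred on the median region, −0.77 with the lowess trend subtracted, −0.78 after quantile normalization and −1.81 over the 7 regions at or above the median level. Centring moves all values by 0.40. Of the other interferon-stimulated genes, 13 were lower by the size rule as deposited, 7 centred, 6 with the trend subtracted and 6 quantile normalized. The PARP and ADP-ribose (11 genes) and ISG15 conjugation (2 genes) lists each had 1 as deposited and 0 under each of these scalings. The receptor and signalling list (3 genes) had 0 under all of them. As deposited, 12.6% of all genes were lower by the size rule. At a size of about 1.5-fold these 3 lists had 4 of 11, 2 of 2 and 2 of 3, against 46% of all genes. With all reads of a gene added up, the PARP and ADP-ribose list had 0 by the size rule. With genes assigned by RefSeq overlap, an alternative chosen after seeing the data, 7 of 8 member genes were lower, against 12.9% of all genes assigned in that way, Parp9 through the Dtx3l region, and Usp18 had no region. The values for pathway lists under these settings were also chosen after seeing the data. No paired analysis was possible because each genotype has 1 library. Depth limits the weak Parp14 and Usp18 regions most.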

Other observations

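The words upstream and downstream in the deposited table run against the RefSeq strand. Of 2292 regions off a gene whose strand RefSeq gives, 2287 carried the opposite word and 5 the same. The Usp18 and second Parp14 regions are therefore placed above by coordinates, not by the table's word.

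Among the other interferon-stimulated genes with a region, 10 of the 22 with a promoter window had at least 1 window with the GAAA-rich core. Of all 27025 genes with a window, 1079 had it. The differences of these 10 ran from −2.10 at Oas3 to 0.49 at Ifit3, and those of all 27 with a region from −2.10 to 0.70. Among the 10, the values above 0 were those of Ifit3 and Ifitm3, whose intervals included 0. Whether the motif goes with the difference was not tested.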
